A study of Homo sapiens with 12 samples.

Results

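The comparison sets 2 control clones of the lymphoma line SUDHL4 against 4 clones of the same line that lack an acetyltransferase, taken as 1 group, and asks which acetylated regions fall when either enzyme is missing. SUDHL4 is an established cell line from a diffuse large B-cell lymphoma of germinal-centre origin. Every clone was derived from a single cell after CRISPR/Cas9 editing, was grown in IMDM medium and was harvested in log phase. The control clones N4-8 and N5-8 had been edited at PPP1R12C, a locus outside both acetyltransferase genes, and still made CREBBP and EP300 by western blot. CBP-E13-5 and CBP-E20-9 lacked CREBBP, their guides having cut at exon 15 (despite the number in the name of CBP-E13-5) and exon 20. P300-E17-17 and P300-E24-5 lacked EP300, cut at exons 17 and 24. These 6 immunoprecipitated libraries were all that the series holds for H3K27ac, and the other 6 of its 12 samples are their inputs, which entered only through the peak lists. Each clone is 1 library, so n counts clones, and a trait of a single clone cannot be told apart from the genotype it stands for when only 2 clones carry that genotype.

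H3K27ac, acetylation of lysine 27 on histone H3, marks active promoters and enhancers and is laid down by CREBBP and EP300. The 2 enzymes are close relatives that share a catalytic domain and bind many of the same transcription factors, and the cell can often use either at a given site. In germinal-centre B cells CREBBP is known for acetylating enhancers that BCL6 represses, among them those of antigen presentation and of the light zone programme, and both genes are mutated in lymphomas of this origin. EP300 is known there for enhancers of the dark zone programme.

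Peaks of the 6 lists on chromosomes 1 to 22 that shared at least 1 base were joined into 47344 merged regions. The amount of acetylated sequence in a region was the number of its bases that a clone's peaks covered, here called covered bases, which measures the width of peaks and not their height. The lists held 45483 peaks in N4-8 and 39377 in N5-8, against 34921 in CBP-E13-5, 39763 in CBP-E20-9, 33969 in P300-E17-17 and 34733 in P300-E24-5. They covered 32.9 and 30.4 Mb in the controls and 27.5, 34.1, 25.4 and 25.5 Mb in the knock-out clones, in the same order. CBP-E20-9 thus covered more of the genome than either control, and the other 3 covered less. The knock-out mean was 28.1 ± 4.10 Mb (SD, n = 4) and the control mean 31.7 ± 1.77 Mb (SD, n = 2), a difference of -3.57 Mb (exact two-sided permutation test over the 15 choices of 2 of the 6 clones, p = 0.4). For the number of peaks that exact permutation test gave p = 0.133, with 35846.5 ± 2643 peaks in the knock-out clones and 42430 ± 4318 in the controls. The smallest p that 6 clones allow for a test in 1 direction is 0.0667, so none of the single-value tests here can pass 0.05. The read depth of each library is unknown, and a region without a peak is one that the authors' caller did not list, not one shown to lack the mark.

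Few regions of the controls were without a peak in every knock-out clone. Of the 29296 regions with a peak in both controls, 956 had none in any of the 4 (3.26%), 1781 had one in a single knock-out clone, 2742 in 2, 2573 in 3 and 21244 in all 4 (72.5%). The regions that 1 clone still held belonged mostly to CBP-E20-9, which alone kept 1479 of them, while CBP-E13-5 alone kept 92, P300-E17-17 alone 115 and P300-E24-5 alone 95. Among the regions held by 2, 1818 had peaks in both clones without CREBBP and in neither without EP300, and 294 the reverse. A region absent in all 4 is absent whichever enzyme is missing, whereas those 1818 and 294 were absent with 1 enzyme missing and listed with the other missing.

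The number of regions absent in all 4 was set against the same count for each of the other 14 choices of 2 clones. For the controls it was 956, and for the others it ran from 16 to 1293 with a median of 130. N4-8 together with CBP-E20-9, which had the longest lists, gave 1293, the only count above that of the controls (one-sided exact permutation p = 0.133). With every list shortened to its 33969 best-scoring peaks, the number in the shortest list, 452 regions were absent in all 4, and 3 other choices gave more: 480 for N5-8 with CBP-E20-9, 653 for the clones without CREBBP and 910 for the clones without EP300 (exact permutation p = 0.267). A peak dropped from a list counts there as absent. The 452 shared 304 regions with the 956, which is 67.3% of the shorter set and 31.8% of the longer. Without CBP-E20-9 the count was 2435, the highest of the 10 choices among the 5 remaining clones (others 50 to 696, exact permutation p = 0.1, the smallest those allow). Without N5-8 the count was 6032 and without N4-8 it was 1899.

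**Figure D1:**
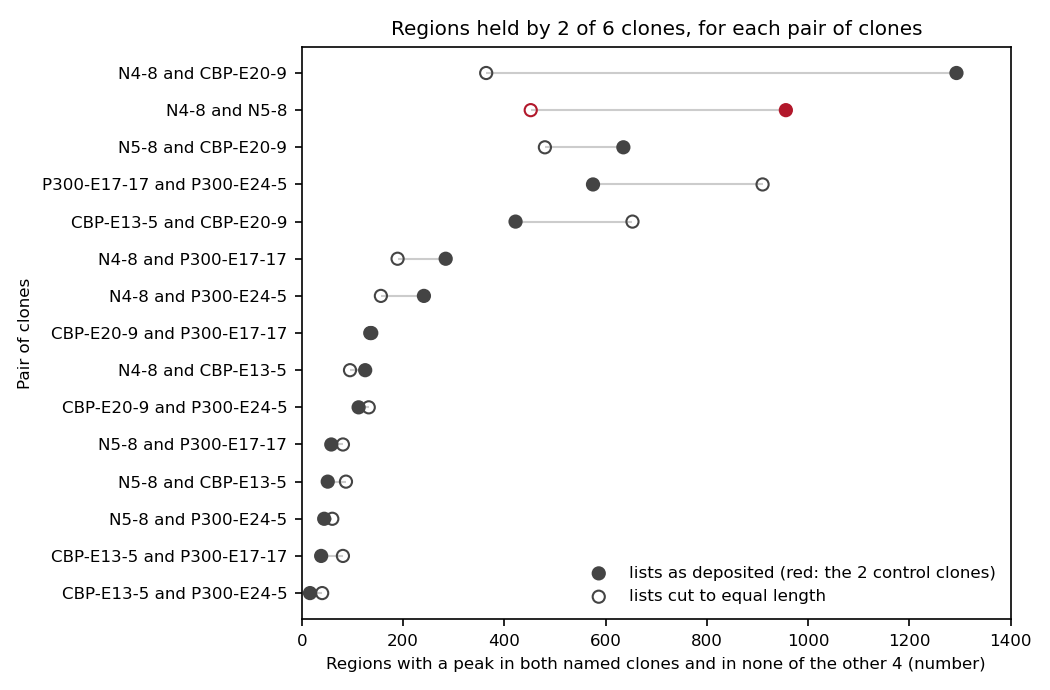
Number of regions (x axis) with a peak in both clones of a pair and in none of the other 4, for each of the 15 pairs (y axis). Filled points use the lists as deposited and open points use lists of 33969 peaks, with the control pair in red. The control pair is exceeded by 1 other pair at 956 and by 3 others at 452.

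Regions absent in all 4 were small and weak in the controls. Their covered length in the controls, as the mean of both, had a median of 205.5 bases and reached at most 1195.5, against a median of 887.5 for the regions that all 4 kept. Their best peak stood at a median of the 22.4th percentile of the authors' score in N4-8 and the 14.5th in N5-8, against 64.1 and 57.7 for every region held by both controls. Of control regions under 250 bases, 15.4% were absent in all 4 (Wilson 95% interval 14.4 to 16.6%, counting error only, regions taken as independent). That share was 3.72% from 250 bases to under 500, 0.451% from 500 to under 1000 and 0.0816% (5 of 6127) from 1000 to under 2000. Of the 3612 regions of 2000 bases or more, 0 were absent in all 4 (Wilson upper bound 0.106%). When a region had to score in the upper 50% of both control lists, 13 were absent in all 4 (the other choices gave 0 to 35), a setting chosen after seeing the data. Of the 956, 52.9% lay within 5 kb of a region that all 6 clones held, against 61.9% of the regions in both controls. Some 17.1% lay in a wide acetylated domain of a control, against 18.3%. By chromosome the share absent ran from 1.74% on chromosome 17 to 5.16% on chromosome 18.

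**Figure D2:**
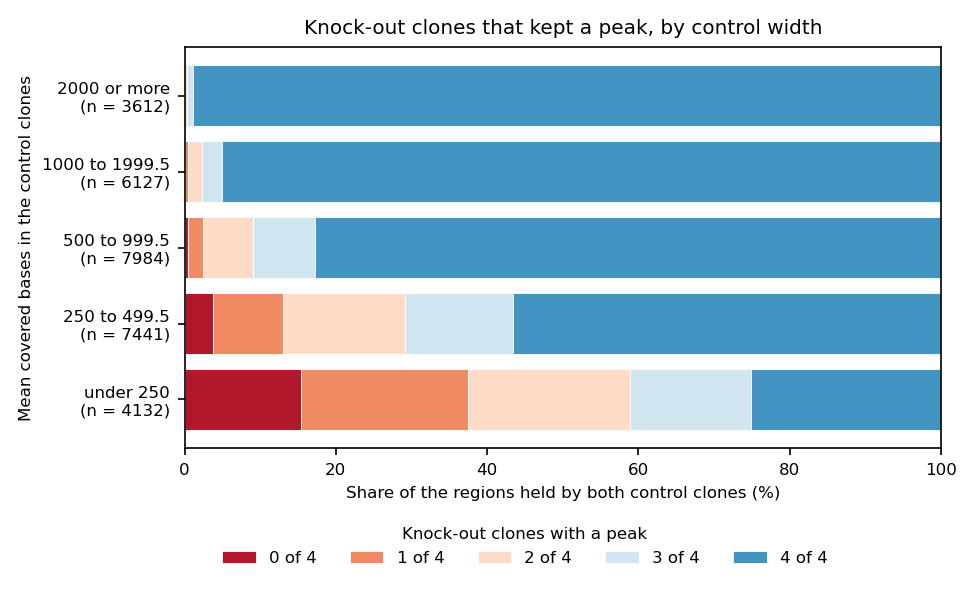
Share of the regions held by both controls (x axis, %) that 0, 1, 2, 3 or 4 of the knock-out clones held too, by the mean covered bases in the controls (y axis, number of regions beside each class). The share held by none falls from 15.4% under 250 bases to 0 at 2000 bases or more.

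A larger set of regions was narrower, without being absent. In 4996 of the 47344 merged regions (10.6%) each of the 4 knock-out clones had fewer covered bases than either control. Only the 29296 regions held by both controls can meet this rule. Of these, the share that met it ran from 26.3% under 250 bases to 12.4% at 2000 bases or more. The 4996 comprise the 956 absent ones, 1648 that 1 to 3 knock-out clones still held and 2392 that all 4 still held. In the last set the median region kept 76.1% of the control mean in CBP-E13-5, 88.7% in CBP-E20-9, 76.2% in P300-E17-17 and 78.1% in P300-E24-5. Of the 15 choices 3 gave a count this high or higher, the controls included (others 143 to 9335, one-sided exact permutation p = 0.2), behind N4-8 with CBP-E20-9 at 9335 and N5-8 with CBP-E20-9 at 5841. It was 11596 without CBP-E20-9, when it ranked first of 10, and 18625 without N5-8. The pairs above the controls all hold CBP-E20-9, so that first rank adds no support. Without any other single knock-out clone the exact permutation p was 0.3. Requiring a gap of at least 100 bases between the groups left 2065. The reverse order was rarer. More covered bases in each of the 4 than in either control were found in 938 regions (1.98%, others 111 to 8975, exact permutation p = 0.733), and a peak in all 4 with none in either control in 94 (0.199%, others 15 to 1818, exact permutation p = 0.467). At equal list length the 94 became 242 (exact permutation p = 0.2), beside 452 regions absent in all 4 (exact permutation p = 0.267). At that length 3857 regions were lower in each of the 4 (exact permutation p = 0.267) and 1104 were higher (exact permutation p = 0.667).

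For single regions, limma compared log2(covered bases + 100), centred per clone on the median region that all 6 clones held. Of 19256 regions in which 2 or more clones had 500 bases or more, 17 were lower in the knock-out group (0.0883%) and 3 higher (0.0156%) at an adjusted p of 0.05, and 529 and 575 had an unadjusted p under 0.05. All 17 falls were regions with no peak in any of the 4. Only 19 of the 956 absent regions passed that filter, and they did so through the controls alone, so the fit describes them and adds no support to their absence. Their log2 differences, from -3.56 to -2.58, depend on the pseudocount because the knock-out values are 0.

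The widest region absent in all 4 lay at chr18:56848-58362 (hg19), near the end of the short arm of chromosome 18. It had 1395 covered bases in N4-8 and 996 in N5-8 and none in any knock-out clone (log2 difference -3.56, SE 0.15, limma adjusted p = 0.0029). Here and for the other absent regions the adjusted p adds no support to the absence. The next called region, chr19:56366206-56367669, had 1464 and 723 bases in the controls and none in the 4 (-3.38, SE 0.25, adjusted p = 0.024). Chromosome 3, with 87 of the 956 absent regions and 1858 of the 29296 in both controls, held 5 of the 10 largest falls. These were chr3:127554895-127556002 with 912 and 1108 bases in the controls, chr3:188404057-188405268 with 1212 and 783, chr3:160759844-160760743 with 900 and 699, chr3:62858412-62859185 with 682 and 730, and chr3:71166615-71167339 with 725 and 669. All 5 were without a peak in the 4 knock-out clones, with adjusted p of 0.0029, and 0.0050 for chr3:188404057-188405268. The remaining 3 of the 10 were chr2:30372418-30373459 (979 and 592 bases), chr19:7770377-7771148 (772 and 753) and chr5:1133914-1134682 (684 and 603).

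Other wide absent regions did not pass, and the fit is no evidence on their absence either. At chr6:7912486-7914098 N4-8 had 1613 bases and N5-8 had 648, against none in the 4 (-3.38, SE 0.32, adjusted p = 0.066). At chr2:222502439-222504086 they had 1648 and 525 bases against none (adjusted p = 0.14). Under 5 and 4 of 13 alternatives, in that order, these 2 regions did pass. Another 2 of the widest 10, chr14:25142406-25144116 (1700 and 240 bases) and chr6:138075908-138077141 (1234 and 373), had fewer than 500 bases in N5-8 and were not tested. None of the 17 falls passed without N4-8 and none under quantile normalization, 5 of them passed with a pseudocount of 1000, and 127 regions were lower without CBP-E20-9.

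Other regions narrowed but stayed listed in all 4. At chr3:188409038-188412841 the controls had 3672 and 2990 bases and the knock-out clones 1212, 1177, 1083 and 1063, with no overlap and little spread among the 4 (log2 difference -1.35, SE 0.12, adjusted p = 0.061). It lies next to the absent region chr3:188404057-188405268. The same pairing occurred on chromosome 6, where chr6:7914818-7918382 had 3565 and 2519 bases in the controls and 217, 1220, 771 and 609 in the knock-out clones (-2.0, SE 0.53, adjusted p = 0.67), beside the absent chr6:7912486-7914098. At chr9:185034-186346 the values were 1153 and 1135 against 352, 325, 210 and 186 (-1.66, SE 0.19, adjusted p = 0.12). At chr3:177075840-177078681 they were 2717 and 2507 against 597, 947, 574 and 912 (-1.57, SE 0.20, adjusted p = 0.16). At chr1:40855677-40858688 they were 3006 and 2972 against 917, 1314, 767 and 1371. In each of these the highest knock-out clone lay below the lowest control by more than the distance between the controls. They were picked for a large ratio of the lowest control to the highest knock-out clone, so neither that gap nor the fits add support. None passed the adjusted threshold in the main fit, with the 4 clones as 1 group. With 3 genotypes as groups, limma gave an adjusted p of 0.0157 at chr3:188409038-188412841, which passed under 5 of 13 alternatives. It gave 0.0097 at chr9:185034-186346 and 0.038 at chr3:177075840-177078681, each of which passed under 2 of 13.

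The 10 narrowed regions named by that rule were otherwise chr15:41849967-41850549, chr17:77784767-77787008, chr12:68984983-68986258, chr19:13272470-13273806 and chr1:155047592-155050228, which kept from 23.2 to 34.3% of their control mean. The last is the one where the genotypes of the knock-out clones differed, as they did in 1148 tested regions with CREBBP-KO higher (5.96%) and in 312 with it lower (1.62%). It had 2555 and 2185 bases in the controls, 234 and 177 without CREBBP and 851 and 937 without EP300. All 4 were low, the clones without CREBBP the lower (CREBBP-KO minus EP300-KO, log2 -1.87, SE 0.20, limma adjusted p = 0.011).

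Peaks found in the knock-out clones alone were fewer. The 3 called rises were chr14:51630026-51630878, with none in the controls and 575, 826, 628 and 799 bases in CBP-E13-5, CBP-E20-9, P300-E17-17 and P300-E24-5 (log2 difference 3.12, SE 0.14, adjusted p = 0.0029), chr8:37350718-37351315, with none and 356, 546, 399 and 555 (2.60, SE 0.17, adjusted p = 0.012), and chr6:88408227-88409033, with 202 and 183 against 640, 802, 547 and 524 (1.42, SE 0.11, adjusted p = 0.027). They met the filter only through the knock-out clones, so the fit adds no support to them, and 3.12 and 2.60 depend on the pseudocount because the control values are 0. None of these rises passed without N4-8. The call was lost under 1 of 13 alternatives at the chromosome 14 region, 5 at the chromosome 8 region and 8 at the chromosome 6 region. The widest of the 94 regions found in all 4 and neither control was chr3:149751144-149755220, with 1611, 172, 4077 and 3014 bases (adjusted p = 0.79). Next was chr18:6254491-6257034, with 1546, 1101, 2531 and 2420 bases and a log2 difference of 4.37 (SE 0.44, adjusted p = 0.087). In both, the clones without EP300 were above those without CREBBP.

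**Figure D3:**
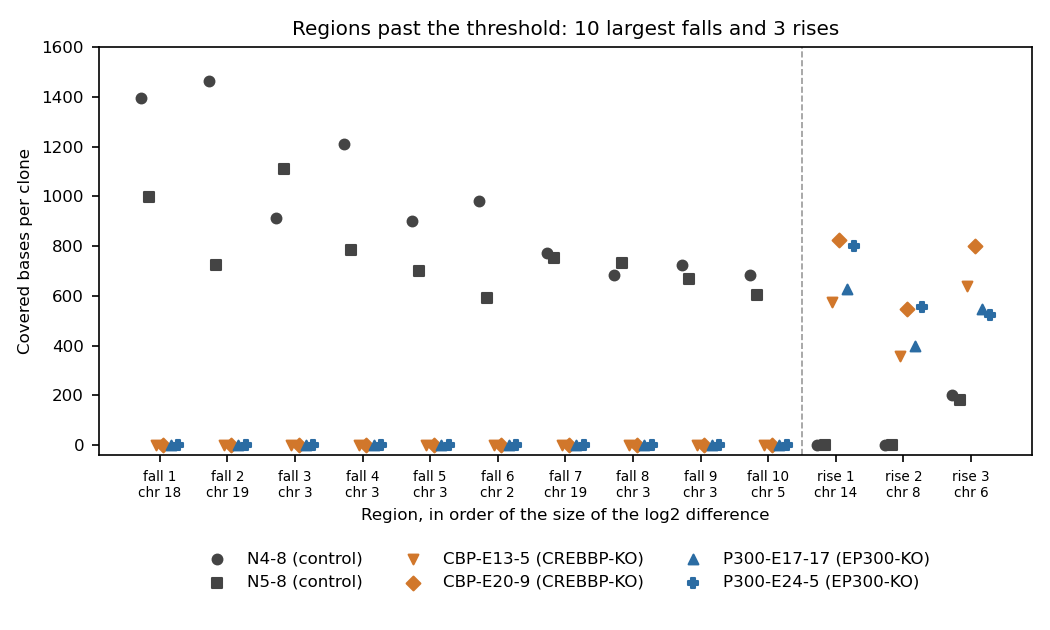
Covered bases per clone (y axis) at the 10 largest falls and the 3 rises past the threshold (x axis, in order of the log2 difference, with the chromosome). Black points are the controls, orange the clones without CREBBP and blue those without EP300. At each fall all 4 knock-out clones sit at 0, and at the rises they lie between 356 and 826 bases, above both controls.

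Genes were named by windows of 1 Mb, because the gene annotation at hand is of another build (GRCh38) than the files (hg19). The windows of 42 genes were used, with their hg19 positions from general knowledge and their chromosomes checked against that annotation. A window holds other genes as well, so its value belongs to the window. A listed gene can also reach past the edge of its window, and whether its promoter lies inside was not checked. Of 1883 windows in which 2 or more clones had 2000 bases or more, limma called 0 (0%) in either direction, with 110 lower and 50 higher at an unadjusted p under 0.05. Without CBP-E20-9 it called 3 lower and 1 higher. In 178 windows (9.45%) each of the 4 knock-out clones covered fewer bases than either control, and in 239 (12.7%) after centring each clone on its median. Each covered more in 37 (1.96%), and in 133 (7.06%) after centring.

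Of the listed windows, the IL4R window had the lowest log2 difference. IL4R is the receptor chain for interleukin 4 and interleukin 13, through which follicular helper T cells act on germinal-centre B cells, and its neighbour in the gene table is IL21R, the receptor for interleukin 21 from the same T cells. In this window (chromosome 16, 27 to 28 Mb) the controls covered 22.9 and 17.7 kb, CBP-E13-5 3.64 kb, CBP-E20-9 9.76 kb, P300-E17-17 3.31 kb and P300-E24-5 3.98 kb. All 4 knock-out clones were below both controls, with CBP-E20-9 between the other 3 and the controls, and the mean of the 4 was 25.5% of the control mean. The log2 difference was -1.97 (SE 0.37), the second lowest of the 1883 windows, with a limma adjusted p of 0.44 (0.0017 before adjustment). Over the alternatives the adjusted p ran from 0.0138 to 0.98 and passed only without CBP-E20-9, where the difference was -2.25. The clones without CREBBP did not pass against those without EP300 (log2 difference 0.54, SE 0.39, adjusted p = 0.35), which with 2 clones each does not show that they were alike.

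The reduction of the IL4R window was spread over many regions. Of all 29296 regions held by both controls, 956 (3.26%) were absent in all 4 and 4996 were lower in each. By width class the share lower in each ran from 12.4 to 26.3%. Both controls held 23 regions in this window. Of these, 9 (39.1%) had no peak in any knock-out clone, the highest number of any window. Fewer bases in each of the 4 than in either control were found in 20 (87.0%). Those 20 were every region from 27210326 to 27442460. The 3 others, at 27560625 to 27561734, were short, and at chr16:27561006-27561190 the 6 clones had 146, 139, 105, 176, 152 and 175 bases. Over all regions, 15.4% were absent under 250 bases, 3.72% from 250 to under 500 and 0.451% from 500 to under 1000. The 9 absent regions of this window had control means of 171 to 562 bases. The widest of them was chr16:27378844-27379492, with 649 and 475 bases in the controls. Several wide regions were kept by CBP-E20-9 alone. At chr16:27308645-27310879 the controls had 2090 and 1960 bases, CBP-E20-9 924 and the other 3 none, and at chr16:27413546-27415684 they had 2139 and 1907, CBP-E20-9 1180 and the other 3 none. The region with the highest control mean, chr16:27214654-27217472, had 2418 and 2636 bases in the controls and 1292, 2149, 1306 and 1178 in the knock-out clones. Of the single regions tested here none passed, the lowest adjusted p being 0.091 at chr16:27285023-27286216 (1194 and 842 bases against 0, 122, 0 and 0).

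**Figure D4:**
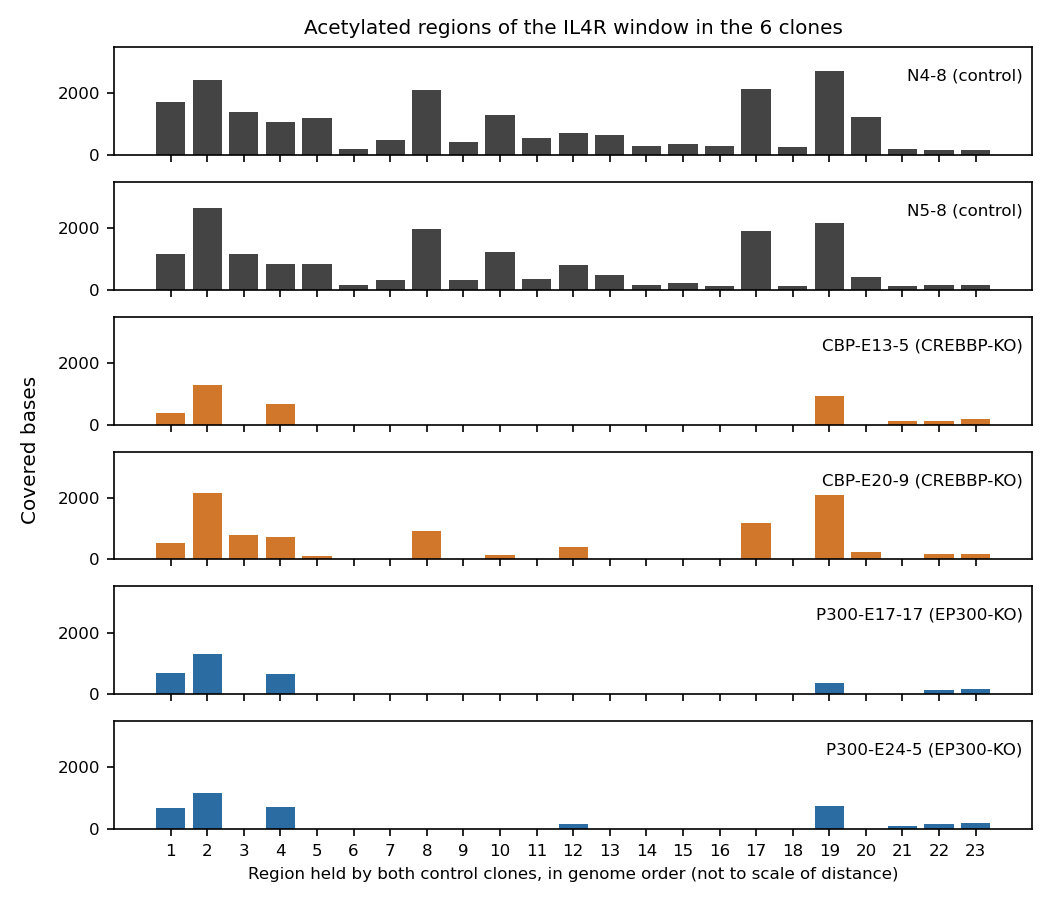
Covered bases (y axis) at the 23 regions of the IL4R window that both controls held (x axis, in genome order, not to scale), 1 panel per clone. Regions 1 to 20 are lower in each knock-out clone than in either control, 9 of them at 0 in all 4, and regions 21 to 23 are not.

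The window of CD83, which marks activated B cells of the light zone, came next among the listed genes. On chromosome 6 at 14 to 15 Mb the controls covered 7.58 and 5.52 kb and the knock-out clones 1.19, 2.18, 1.85 and 2.56 kb, 29.7% of the control mean. The groups did not overlap and CBP-E20-9 lay within the range of the other 3. The log2 difference was -1.61 (SE 0.29, limma adjusted p = 0.44, over the alternatives 0.077 to 0.98). Over all regions held by both controls, the share lower in each ran from 12.4 to 26.3% by width class. Beside 956 and 4996 of all 29296 regions held by both controls, 0 of the 8 in this window were absent in all 4 and 3 (37.5%) were lower in each. The widest, chr6:14094142-14096736, had 2593 and 2022 bases in the controls and 0, 271, 0 and 310 in the knock-out clones. At chr6:14276363-14277986 the values were 1588 and 1263 against 0, 0, 195 and 645, and at chr6:14108306-14109481 they were 1176 and 851 against 346, 331, 727 and 594. At chr6:14117934-14118462 the groups were closer and overlapped, with 441 and 528 against 432, 472, 418 and 406.

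The HLA-DRA window was lower by less. HLA-DRA encodes the alpha chain of HLA-DR, an MHC class II molecule that presents antigen to helper T cells. On chromosome 6 at 32 to 33 Mb the controls covered 28.7 and 28.3 kb, CBP-E13-5 16.3 kb, CBP-E20-9 24.1 kb, P300-E17-17 16.7 kb and P300-E24-5 17.0 kb. The mean of the 4 was 65.1% of the control mean (log2 difference -0.52, SE 0.11, limma adjusted p = 0.44, over the alternatives 0.12 to 0.98), and both controls lay above all 4. Of 26 regions, 5 were absent in all 4 (19.2%), 15 were lower in each (57.7%) and 10 were kept by each. Of all 29296 regions held by both controls, 956 were absent in all 4 (3.26%), 4996 were lower in each and 21244 were kept by each (72.5%). By width class the share lower in each ran from 12.4 to 26.3%. Absent were 15.4% under 250 bases and 3.72% from 250 to under 500, and the 5 absent in this window had control means of 119 to 374 bases. At chr6:32571761-32573187 the controls had 1427 and 637 bases, CBP-E20-9 150 and the other 3 none. At chr6:32603294-32607631 they had 3917 and 3988 bases and the knock-out clones 2380, 3311, 1907 and 2128. The widest region, chr6:32631839-32636882, overlapped between the groups, with 4394 and 4716 against 3441, 4810, 4489 and 4318. Some MHC class II genes are close to each other in sequence and vary between people, so the placing of reads in parts of this window is uncertain. The other listed genes of MHC class II antigen presentation differed less. CIITA, the coactivator that switches these genes on, had a window log2 difference of -0.01 (SE 0.08) that turned positive under 5 of 13 alternatives, and CD74, the invariant chain, one of -0.15 (SE 0.10, adjusted p = 0.70) with 5 of its 25 regions absent in all 4.

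Among the 10 tested windows of light zone and activation genes, 4 were below both controls in each knock-out clone, those of CD83, IL4R, BCL2A1 and CD40, beside 9.45% of all windows. BCL2A1, a survival factor of the BCL2 family, had 19.7 and 19.8 kb in the controls and 16.2, 19.4, 15.3 and 15.0 kb in the knock-out clones (log2 difference -0.15, SE 0.08, limma adjusted p = 0.63). Of its 19 regions 5 were absent in all 4, beside 3.26% of all regions held by both controls. These 5 had control means of 131.5 to 354.5 bases. Over all regions, 15.4% were absent under 250 bases and 3.72% from 250 to under 500. CD40, the receptor for the helper signal of T cells, had 22.7 and 21.7 kb against 17.5, 21.6, 18.96 and 19.4 kb (-0.08, SE 0.09, adjusted p = 0.81), and after centring the groups overlapped. In SLAMF1, an activation receptor, CBP-E20-9 with 56.6 kb exceeded N5-8 with 52.7 kb, and after centring it did not (-0.32, SE 0.13, adjusted p = 0.57). The windows of MYC (-0.14), CCL22 (-0.09) and CD86 (-0.15) overlapped between the groups. That of NFKBIA, the inhibitor of NF-kB, overlapped as deposited and was above both controls in each knock-out clone after centring (0.09, which turned negative without centring). TNFAIP3 had too few covered bases to test. The list had a median log2 difference of -0.15, against -0.04 over all windows tested. That value was not particular to this list. The median was -0.14 for the control genes ACTB, CD3E, CD14 and ALB, -0.15 for MHC class II and -0.18 for dark zone and confinement. The remaining lists ran from -0.26 (survival) to 0.02 (edited genes).

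FAS, the death receptor, differed between the knock-out genotypes. Its window had 19.2 and 19.2 kb in the controls, 15.6 and 23.3 kb in the clones without CREBBP and 7.91 and 8.16 kb in those without EP300. The low value of the 4 as a group (log2 difference -0.51, SE 0.40, limma adjusted p = 0.74) thus came with the controls lying between the 2 clones without CREBBP. The difference between the knock-outs was 1.07 on the log2 scale (CREBBP-KO minus EP300-KO, SE 0.12, adjusted p = 0.022). Over all 1883 windows that contrast was higher in 206 (10.9%) and lower in 91 (4.83%).

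None of the 3 windows of dark zone and confinement genes was low in all 4, where 9.45% of all windows were. FOXO1, a transcription factor of the dark zone, had 107.1 and 102.7 kb in the controls, 98.0 and 114.3 kb without CREBBP and 61.8 and 66.8 kb without EP300. CXCR4, the chemokine receptor that holds cells in the dark zone, had 35.4 and 36.7 kb, then 32.4 and 42.9 kb, then 21.5 and 24.3 kb. In both the clones without CREBBP lay on either side of the controls and those without EP300 below them, and the knock-outs differed from each other (log2 0.56, SE 0.07, and 0.54, SE 0.10, with limma adjusted p of 0.025 and 0.035). S1PR2, a receptor that confines cells to the follicle, had 85.6 and 82.0 kb against 74.8, 88.5, 65.4 and 67.3 kb.

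In the 8 windows of germinal-centre and B-lineage transcription factors, 0 were low in all 4, beside 9.45% of all windows. After centring 2 were, beside 12.7% of all windows, those of IRF8 (-0.31, SE 0.11, limma adjusted p = 0.54) and POU2AF1 (-0.11, SE 0.08, adjusted p = 0.71). BCL6, the repressor that defines the germinal-centre state, had 138.6 and 131.8 kb in the controls and 128.6, 138.9, 98.3 and 103.3 kb in the knock-out clones. EBF1, a factor of early B-cell identity, had 80.4 and 82.9 kb against 79.5, 91.9, 55.2 and 58.3 kb. PAX5, IKZF1, SPIB and MEF2B had log2 differences of -0.20, 0.05, 0.02 and 0.02, of which the last 3 turned negative without centring. Of 6 windows of B-cell receptor signalling and surface genes, 1 was low in all 4 after centring, beside the same 12.7%. It was that of PTPN6, a phosphatase that restrains the receptor (-0.27, SE 0.11, limma adjusted p = 0.57). CD79A and MS4A1, which encode a receptor subunit and the surface protein CD20, had differences of 0.01 and -0.02, whose sign changed with the setting. CD22 and BLNK had -0.20 and -0.26, the latter with controls of 18.5 and 11.6 kb and turning to 0.03 without N4-8. SYK had 0.15, and after centring each knock-out clone was above both controls.

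The plasma cell genes PRDM1, XBP1 and IRF4, whose products drive the exit from the germinal centre, had window differences of 0.08, -0.03 and -0.0023, each of which changed sign with the setting. BCL2, the survival gene, had 51.8 and 44.8 kb in the controls against 38.8, 50.9, 31.6 and 30.3 kb (-0.26, SE 0.15, limma adjusted p = 0.68). The windows of the edited genes CREBBP, EP300 and PPP1R12C differed by -0.04, 0.02 and 0.04, again with signs that changed, and such windows are too coarse to check the edits. As B-cell markers the windows of MS4A1, CD79A and PAX5 were covered in all 6 clones, but so were those of the T-cell gene CD3E, the monocyte gene CD14 and the hepatocyte gene ALB, so windows of 1 Mb do not set cell types apart. Over the 37 tested windows outside the controls, 5 were low in all 4 (13.5%) and 8 after centring (21.6%), beside 9.45% and 12.7% of all windows. In the 4 control windows, which include ACTB, those numbers were 0 and 1, that of CD3E (-0.17, SE 0.08).

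**Figure D5:**
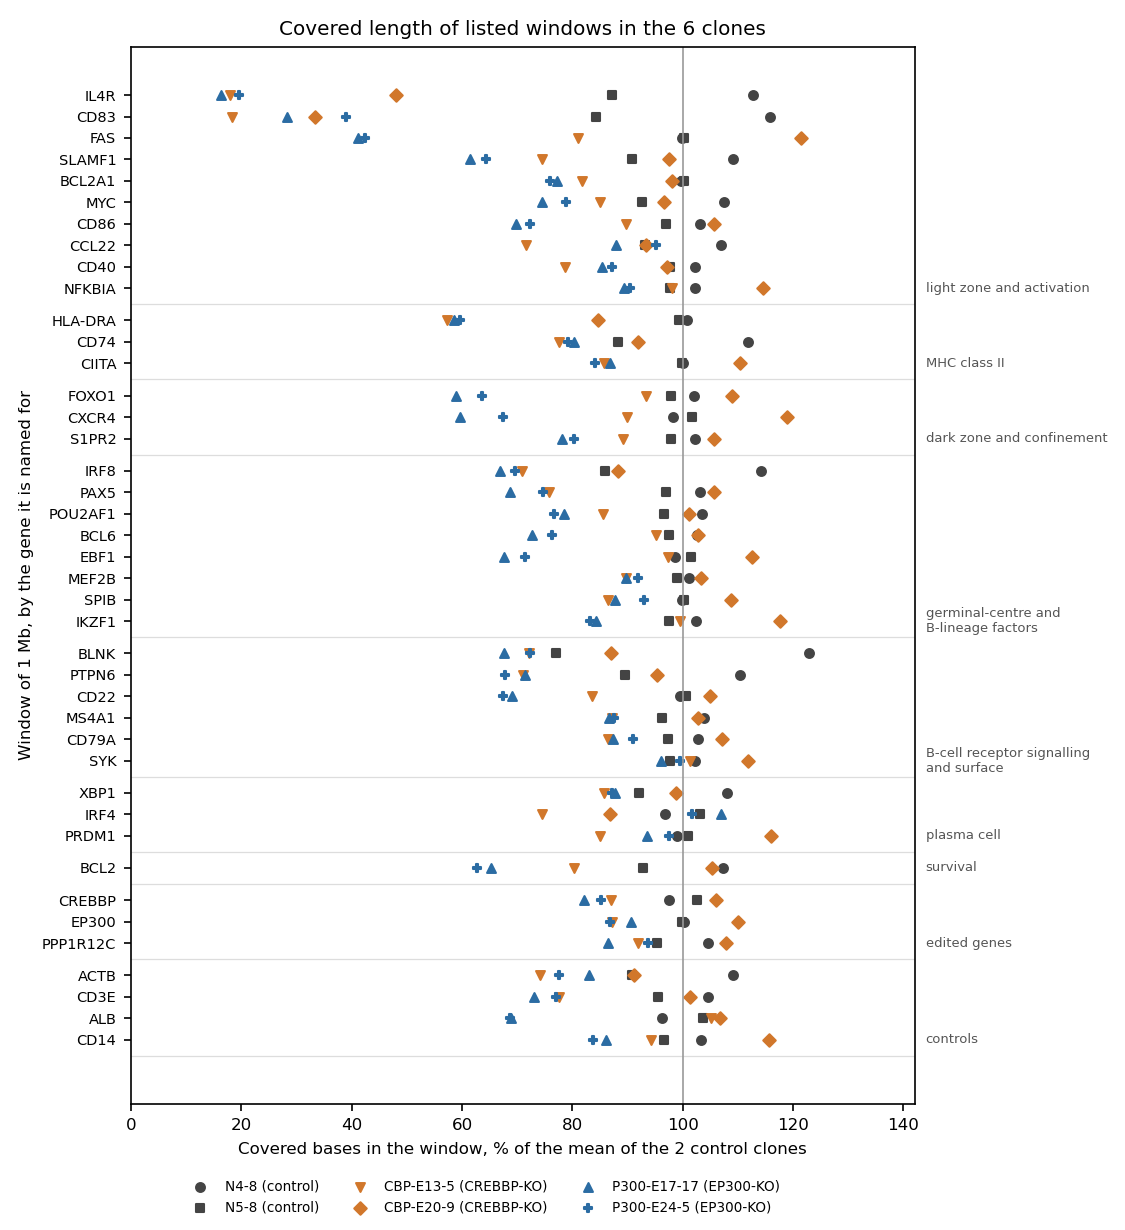
Covered bases in the window of each listed gene (y axis, grouped by list) as % of the mean of the 2 controls (x axis), 1 point per clone. The knock-out clones of the IL4R and CD83 windows lie apart from the controls, and in most other windows CBP-E20-9 lies among or above the controls.

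Wide acetylated domains were clusters of peaks joined across short gaps (the default distance of the ROSE program) whose peaks sum to 10 kb or more. There were 508 and 467 in the controls and 404, 589, 266 and 289 in CBP-E13-5, CBP-E20-9, P300-E17-17 and P300-E24-5. Of 420 present in both controls, 235 were present in all 4 knock-out clones, 36 in 3, 95 in 2, 48 in 1 and 6 in none (one-sided exact permutation p = 0.267, other choices 0 to 34), while 0 were found in all 4 and neither control. Without CBP-E20-9 the 6 became 54, and without N5-8 they became 50. A domain counts as absent when it falls under 10 kb, and all 6 kept covered bases. The one that lost most lay at chr3:187802196-187841552, within the window of BCL6, with 14.6 and 13.1 kb in the controls and 8.53, 9.32, 6.89 and 6.90 kb in the knock-out clones. At chr1:27800251-27826934 the values were 12.8 and 10.3 kb against 6.36, 8.24, 4.35 and 4.50 kb, and at chr19:13260834-13279227 they were 10.98 and 10.02 kb against 7.62, 9.66, 5.63 and 5.66 kb. The last of these holds the narrowed region chr19:13272470-13273806. The domain at chr1:26605636-26648029, with 16.5 and 15.1 kb against 12.8, 16.2, 14.7 and 14.2 kb, overlapped between the groups. It kept over 10 kb in each knock-out clone in sum, but in no single cluster of joined peaks.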

How the data were processed

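H3K27ac ChIP-seq peak lists of 6 SUDHL4 clones were used. Per the labels' protocols, cells were fixed in 1% formaldehyde, chromatin was sheared to 200 to 500 bp, libraries gave read pairs of 150 bp, and the depth of each library is not known. Per the submitters' processing notes, CASAVA 1.8, Bowtie2 2.1.0, SAMtools 0.1.19 and hg19 were used. Which program called the peaks was not given in the sources used here. Per the file headers, each list compares 1 library with the input of that clone, and no list pools clones. The deposited start and end are positions, read here as counted from 0, which leaves 1 base of doubt in a printed start. The deposited score per peak is the authors' own, has no stated meaning, and served only to rank peaks within a list. In the 6 lists the lowest scores were 19 to 21 and the medians 48 to 52.

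From these, merged regions, covered bases, wide domains (peaks joined across short gaps, 10 kb or more in sum) and windows of 1 Mb were computed (Python 3.11.15, pandas 2.3.3). Counts were compared over all 15 choices of 2 of 6 clones, an exact permutation test. Covered bases were compared with limma 3.58.1 (R 4.3.3) and Benjamini-Hochberg adjustment over all regions or windows tested, and the script was tested on simulated data. The CREBBP-KO against EP300-KO differences come from a fit with 3 genotypes. Log2 differences understate changes of short regions. Regions were named as the 10 widest in the controls among those absent in all 4, among those narrower in each of the 4 and kept by all 4 the 10 with the largest log2 ratio of the lowest control to the highest knock-out clone, the 10 largest falls and up to 5 largest rises in limma, and the 5 widest among those in all 4 and neither control. Windows were those of 42 listed genes, and 2 other genes of the lists are not reported here. The members and lists were chosen with earlier results of these data known. Alternatives were list length, score, overlap, chromosome X, pseudocount, filter, centring, design, stitching and leaving out each clone. No genome of the files' build was used, so no region sequence is shown.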

Additional observations from a re-analysis of the deposited data

Results flagged for a closer look

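CBP-E20-9 stood apart from the other 3 knock-out clones in several measures, by the gap of the highest clone to its nearest neighbour as a share of the range of the 4 (Dixon's ratio, past its 95% critical value for 4 samples). Of 63 measures looked at, 10 passed, of which chance alone flags about 1 in 20. They were the number of peaks (0.836) and the covered length of the windows of IL4R (0.897), HLA-DRA (0.915), CIITA (0.898), MEF2B (0.842), MS4A1 (0.940), PTPN6 (0.865), XBP1 (0.852), EP300 (0.840) and CD3E (0.843). The measures are not independent, since in each of them CBP-E20-9, which has the longest list of the 4, is the high clone.

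The clones without CREBBP and those without EP300 differed from each other in 6 of 41 listed windows (limma, adjusted over all windows), beside 10.9% of all windows higher and 4.83% lower. Listed windows thus differed about as often as windows in general. The log2 difference, CREBBP-KO minus EP300-KO, was 1.07 for FAS, 0.29 for CD86, 0.56 for FOXO1, 0.54 for CXCR4, 0.43 for EBF1 and -0.52 for IRF4. The IRF4 window was covered less without CREBBP, with 2.36 and 2.75 kb against 3.39 and 3.22 kb without EP300 and 3.07 and 3.27 kb in the controls. At the narrowed region chr1:155047592-155050228 the difference was -1.87.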

How the results depend on the processing

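No paired analysis was possible because the labels give no replicate numbers, and the clones of different genotypes share no source beyond the cell line. Leaving out each clone in turn gave 1048 to 6032 regions absent in all 4, 5279 to 18625 lower in each of 4, 128 to 347 found in all 4 and neither control, 1111 to 3147 higher in each of 4, and 6 to 54 absent wide domains. Fewer clones must meet each rule there, so these counts rise by construction. In limma it gave 0 to 127 regions lower and 0 to 50 higher, and 0 to 3 windows lower and 0 to 2 higher. At equal list length 452 regions were absent in all 4, 242 were found in all 4 and neither control, and limma called 28 lower and 23 higher. With scores in the upper 50% of the lists that hold the region 13 were absent. A gap of 100 bases left 2065 lower and 331 higher in each of 4. A domain minimum of 5 kb gave 22 absent domains. Without the filter limma called 503 regions lower and 49 higher, and 17 of the 503 were the 17 of the filtered fit. With 3 genotypes as groups it called 351 lower and 118 higher, and 4 windows higher. Quantile normalization left 0 regions lower. A pseudocount of 10 gave 11 regions higher and one of 1000 gave 1.

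Windows near 0 changed sign. Without centring the log2 difference was -0.034 for NFKBIA, -0.097 for MEF2B, -0.095 for SPIB, -0.071 for IKZF1, -0.11 for CD79A, -0.038 for PRDM1, -0.10 for EP300, -0.077 for PPP1R12C and -0.086 for CD14. With a pseudocount of 1000 it was -0.035 for MEF2B, -0.033 for SPIB, -0.0085 for IKZF1, -0.048 for CD79A, -0.039 for EP300, -0.015 for PPP1R12C and -0.023 for CD14. With a pseudocount of 10 it was 0.00013 for CIITA and 0.0068 for IRF4. With quantile normalization it was 0.074 for CIITA, 0.060 for MS4A1, 0.044 for IRF4, 0.020 for XBP1 and 0.051 for CREBBP. Leaving out each clone gave -0.049 to 0.025 for CIITA, -0.016 to 0.065 for SPIB, -0.0060 to 0.029 for CD79A, -0.56 to 0.032 for BLNK, -0.10 to 0.091 for IRF4, -0.11 to 0.045 for XBP1, -0.11 to 0.037 for CREBBP and -0.017 to 0.054 for EP300. Apart from the shift between clones that centring removes, which for the knock-out clones ran from -0.21 to 0.086 against the control mean, the cause was not tested. The other named regions and windows that limma tested kept their direction under every alternative run. Named regions outside its filter and single regions within the IL4R, CD83 and HLA-DRA windows were not rerun. The unknown depth limits every statement on absence.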

Other observations

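Outside the listed genes, the window with the lowest log2 difference lay on chromosome 15 at 46 to 47 Mb, where the controls covered 2.54 and 5.70 kb, CBP-E13-5 0.433 kb, CBP-E20-9 4.97 kb and both clones without EP300 none (-3.15, SE 1.60, limma adjusted p = 0.63). The window with the highest lay on chromosome 18 at 6 to 7 Mb. The controls had no peak there, the clones without CREBBP 1.55 and 1.29 kb and those without EP300 6.05 and 3.58 kb (4.86, SE 0.69, adjusted p = 0.37). After the IL4R window with 9, the window with the most regions absent in all 4 was on chromosome 1 at 27 to 28 Mb. It had 7 of 68, beside 3.26% of all regions held by both controls, and it held 1 of the 6 absent wide domains. These windows were chosen after their values were seen.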
